A study of Mus musculus with 6 samples.

Results

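The 10 genes described here were listed as feedback inhibitors of ERK signalling, although the product of Dusp10 prefers p38 and JNK over ERK. They are the MAP kinase phosphatases Dusp1, Dusp2, Dusp4, Dusp5, Dusp6 and Dusp10, the Sprouty genes Spry1, Spry2 and Spry4, and Spred1. They were chosen by gene name from the non-control probes of the array, where all 10 were found, with 12 probes, among 35527 gene names and 55681 probes. The samples were cultures of 3T3, a long-established fibroblast line from mouse embryos, exposed for 48 h to GapmeR Ntep or to GapmeR control, each at 50 nM. A GapmeR is a modified antisense DNA strand that lets RNase H cut the RNA it pairs with, here the long non-coding RNA Ntep. With 1 array per GapmeR in each of 3 independent experiments, 3 arrays labelled GapmeR Ntep were compared with 3 labelled GapmeR control. The comparison asks how the RNA of these genes differed after exposure to the GapmeR against Ntep.

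ERK is the last kinase of the RAS, RAF and MEK cascade that growth factors switch on in fibroblasts. Active ERK raises transcription of genes whose products switch the cascade off again, and their RNA is often read as a record of recent pathway activity. Dual-specificity phosphatases of the DUSP family remove phosphate from MAP kinases themselves, whereas Sprouty and Spred proteins act further up, between receptor tyrosine kinases and RAF.

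Signals are quantile normalized intensities of the gene's brightest probe, with values under 20 set to 20. A probe was tested when its mean reached 50 in the brighter group. In experiments 1, 2 and 3, GapmeR Ntep arrays had 49.8%, 53.3% and 43.7% of all probes well above background, and GapmeR control arrays 51.8%, 47.5% and 47.6%. The single probe of Ntep itself (A630089N07Rik, chromosome 16, bases 98283712 to 98283771 of mm9) read 472, 91.5 and 226 under GapmeR Ntep and 271, 272 and 361 under GapmeR control, in the order of the experiments. It was lower under GapmeR Ntep in experiments 2 and 3 and higher in experiment 1, against the label. The log2 difference was -0.48 (SE 0.58, limma adjusted p = 0.632). Arrays are therefore named by their labels, and every direction below is that of the label.

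Of the 10 genes, 8 had a tested probe, and Spry2 and Spry4 were too dim. Among the 8, 7 were higher and 1, Spred1, was lower on the arrays labelled GapmeR Ntep. Their log2 differences ran from -1.03 to 1.77 with a median of 0.52, against a median of 0.06 over all 22034 gene names tested, of which 11975 were higher. No member passed an adjusted p under 0.05 in limma in either direction, where 1.98% of all genes passed as higher and 3.18% as lower. At an unadjusted p under 0.05, 2 members were higher (Dusp1 and Dusp4) and 1 was lower (Spred1), where 12.3% and 12.6% of all genes were. A fold change of at least 2 with an unadjusted p under 0.01 was reached by 0 members as higher and by 1 as lower (Spred1), against 2.89% and 5% of all genes. The 2 sets of arrays had no overlap for 1 member that was higher (Dusp1) and 1 that was lower (Spred1), against 17.1% and 15.5% of all genes, where chance gives 10% for 3 against 3 with both directions together.

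Arrays of the same experiment varied together, and a fit with experiments as blocks gave other calls. With the replicate block, 2 members were higher at an adjusted p under 0.05, Dusp1 (0.0310) and Dusp4 (0.0488), and 0 were lower, where 6.51% of all genes passed as higher and 7.42% as lower. Spred1 did not pass in that fit (0.0589). In bulk RNA, a change in RNA per cell and a change in the kinds of cells present cannot be told apart.

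**Figure D1:**
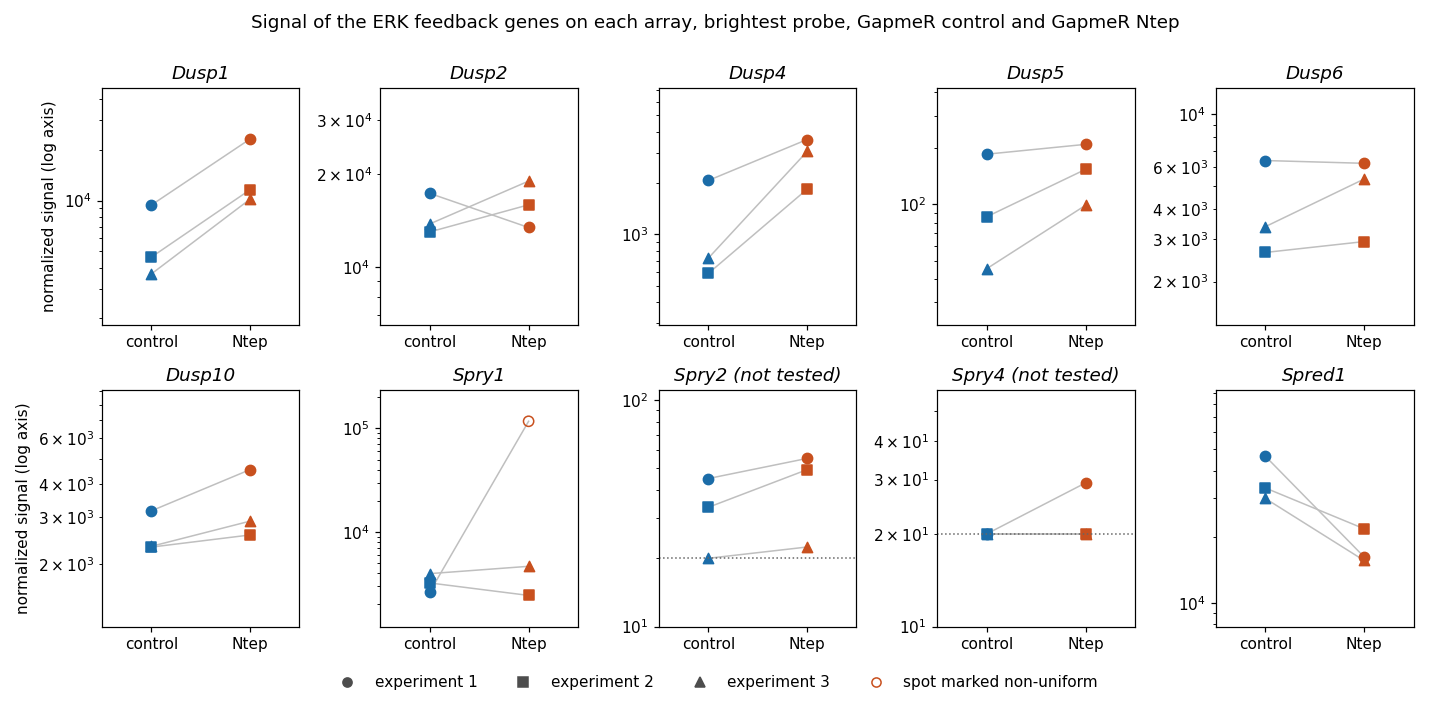
Normalized signal on a log axis for the brightest probe of each of the 10 genes, with 1 point per array and grey lines joining the arrays of an experiment. Dusp1 is higher under GapmeR Ntep in each experiment without overlap of the labels, Spred1 is lower without overlap, and the open point of Spry1 is a spot that the scanner software marked as non-uniform. Dotted lines mark the floor of 20.

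Dusp1 encodes a nuclear phosphatase that acts on ERK, p38 and JNK and is made within minutes of a stimulus. Its probe lies on chromosome 17, where the deposited annotation gives bases 26642526 to 26642536 of mm9. Experiments 1, 2 and 3 gave signals of 23207, 11613 and 10207 under GapmeR Ntep and of 9413, 4620 and 3671 under GapmeR control. All arrays labelled GapmeR Ntep lay above all arrays labelled GapmeR control, although experiment 2 and experiment 3 under GapmeR Ntep exceeded the control array of experiment 1 by little. The mean was 15009 ± 7135 under GapmeR Ntep and 5901 ± 3078 under GapmeR control (SD, n = 3 per label). The log2 difference was 1.37 (SE 0.47, 95% interval 0.22 to 2.51, limma adjusted p = 0.143), and the experiments gave 1.30, 1.33 and 1.48. The experiments differed in the level of Dusp1 more than in its change.

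Dusp4 encodes another nuclear phosphatase, inducible through ERK. Its probe is at bases 35882045 to 35882104 of chromosome 8 in mm9. GapmeR Ntep arrays gave 3599, 1840 and 3062 in experiments 1, 2 and 3, and control arrays 2069, 589 and 724. The control array of experiment 1 lay above the GapmeR Ntep array of experiment 2, so the labels overlapped, but within each experiment GapmeR Ntep was the higher one. The log2 difference was 1.51 (SE 0.53, 95% interval 0.21 to 2.81, limma adjusted p = 0.152), with 0.80, 1.64 and 2.08 in the experiments.

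Dusp5 encodes a nuclear phosphatase specific for ERK. Its signals were 210.1, 154 and 99.0 under GapmeR Ntep and 186, 85.9 and 45.2 under GapmeR control, in the order of experiments 1, 2 and 3, and the control array of experiment 3 was not well above background. The labels overlapped, since the control array of experiment 1 exceeded 2 of the GapmeR Ntep arrays, while GapmeR Ntep was higher within each experiment. The log2 difference was 0.72 (SE 0.56, 95% interval -0.65 to 2.09, limma adjusted p = 0.472), and this unpaired interval included 0. Differences of 0.18, 0.84 and 1.13 were seen in the experiments. With experiments as blocks Dusp5 did not pass either (limma adjusted p = 0.119).

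Dusp2, a nuclear phosphatase best known from activated immune cells, was bright on all arrays. It gave 13460, 15944 and 19033 under GapmeR Ntep and 17362, 13024 and 13824 under GapmeR control. Experiment 1 went the other way from experiments 2 and 3, with -0.37 against 0.29 and 0.46. The mean log2 difference was 0.13 (SE 0.21, 95% interval -0.39 to 0.65, limma adjusted p = 0.733).

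Dusp6 encodes the cytoplasmic phosphatase that is selective for ERK, and its RNA is a common readout of ERK activity. It gave 6220, 2937 and 5349 under GapmeR Ntep and 6388, 2646 and 3387 under GapmeR control. Values of the labels were interleaved, with experiment 1 high and experiment 2 low under either GapmeR. The experiments gave log2 differences of -0.04, 0.15 and 0.66, and the mean was 0.26 (SE 0.43, 95% interval -0.80 to 1.31, limma adjusted p = 0.737). Without the control array of experiment 2 the direction of Dusp6 turned, to -0.015. Dusp10, whose product prefers p38 and JNK over ERK, gave 4544, 2570.1 and 2899 under GapmeR Ntep and 3171, 2312 and 2327 under GapmeR control. Here too experiment 1 was the highest under both GapmeRs and the labels overlapped. GapmeR Ntep was higher in all experiments, by 0.52, 0.15 and 0.32, with a mean of 0.33 (SE 0.28, 95% interval -0.35 to 1.01, limma adjusted p = 0.489).

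Sprouty proteins are induced by growth factors and hold back signalling from receptors to RAF. Spry1 had the largest mean difference of the 8 tested members, 1.77 on the log2 scale (SE 1.42, limma adjusted p = 0.481), which rested on 1 spot. Its probe (chromosome 3, bases 37543403 to 37543462 of mm9) gave 116997 on the array labelled GapmeR Ntep of experiment 1, and 2437 and 4655 on those of experiments 2 and 3, against 2636, 3215 and 3956 under GapmeR control. The bright spot was the only 1 of 72 member spots that the scanner software had marked as an outlier, for a non-uniform surface, a mark carried by 0.316% of all spots when both kinds of outlier mark are counted. With marked spots set to missing, a setting chosen after the values had been seen, the difference of Spry1 was 0.06 (adjusted p = 0.930), and the other experiments gave -0.40 and 0.23. The median of the 8 members was 0.30 in that setting.

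Spry2 gave 55.1, 49.2 and 22.4 under GapmeR Ntep and 44.9, 33.5 and 20 under GapmeR control. It was well above background on 2 of the arrays labelled GapmeR Ntep and on 0 labelled GapmeR control, and no fold is given because the bound was under 1. Spry4 was not well above background on any array, with 29.3, 20 and 20 under GapmeR Ntep and the floor of 20 on each control array. Neither gene could be compared at this signal.

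Spred1 encodes a membrane-bound relative of the Sproutys that works with neurofibromin to switch off RAS. It was the 1 tested member that was lower. The brightest of its 3 probes (chromosome 2, bases 117005906 to 117005965 of mm9) gave, for experiments 1, 2 and 3, 16175, 21727 and 15577 under GapmeR Ntep and 46491, 33326 and 29856 under GapmeR control. Every array labelled GapmeR Ntep was below every control array. The mean was 17826 ± 3391 under GapmeR Ntep against 36558 ± 8776 (SD, n = 3 per label), and the log2 difference was -1.03 (SE 0.25, 95% interval -1.63 to -0.43, limma adjusted p = 0.0676). Experiments gave -1.52, -0.62 and -0.94. At 2.04-fold lower, Spred1 was just past the fold limit of 2, and without replicate 1 or 2 of GapmeR control or replicate 1 or 3 of GapmeR Ntep it no longer met both limits.

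The other probes of Spred1 pointed the same way. The second gave 2400.2, 1959 and 2163 under GapmeR Ntep and 5423, 3614 and 3574 under GapmeR control, again without overlap, with a log2 difference of -0.93 (SE 0.23, limma adjusted p = 0.0704, with experiments as blocks 0.0424). The third gave 609.6, 434 and 412 against 785, 1357 and 539.95, where the labels overlapped, and a difference of -0.80 (SE 0.37, adjusted p = 0.249). All of the probes were lower under GapmeR Ntep in each experiment. Which transcripts each probe detects was not tested.

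**Figure D2:**
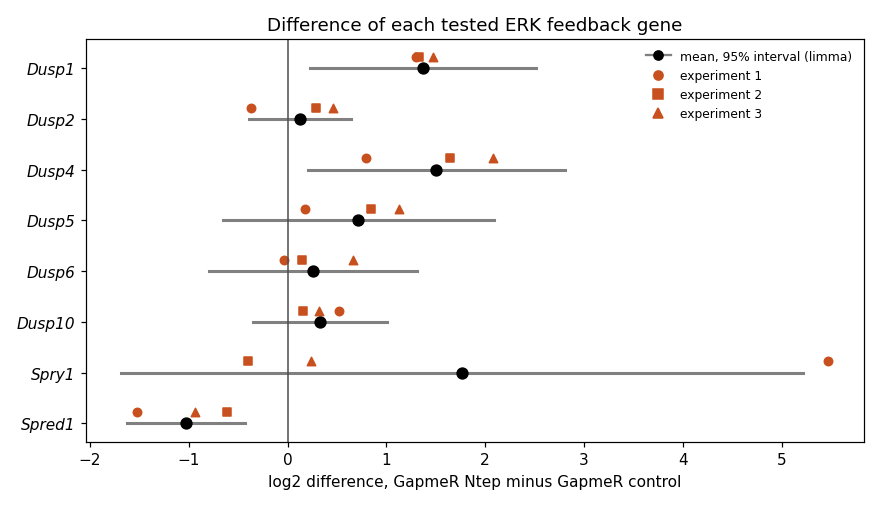
Log2 difference of GapmeR Ntep minus GapmeR control for the 8 tested genes, as the mean with its 95% interval from limma (black, grey) and the value of each experiment (orange). The intervals of Dusp1, Dusp4 and Spred1 leave out 0, and that of Spry1 runs from -1.68 to 5.22.

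Across experiments, 4 of the 8 tested members were higher in all 3 (Dusp1, Dusp4, Dusp5 and Dusp10) and 1 was lower in all 3 (Spred1), where 32.5% and 27.0% of all genes were. Experiment 1 had 5 members higher, experiment 2 had 6 and experiment 3 had 7. On the control array of experiment 1, 7 of the 8 members (all but Spry1) had their highest control signal, which was so for 46.2% of all genes. Under GapmeR Ntep, 6 of the 8 were highest in experiment 1, against 39.7% of all genes, Spry1 by its marked spot. The median of the members was 0.93 without the control array of experiment 1, 0.24 without that of experiment 3 and 0.17 without the GapmeR Ntep array of experiment 1. Relative to all genes tested, Spry1 stood at the 98.4th percentile of the log2 difference, but at the 50.2nd with marked spots set to missing. Dusp4 stood at the 97.6th, Dusp1 at the 96.8th and Dusp5 at the 86.9th, whereas Dusp10 (69.2), Dusp6 (64.7) and Dusp2 (55.2) lay nearer the middle and Spred1 at 9.73.

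The genes whose signal followed that of Dusp6 most closely over the 6 arrays, among 16705 gene names well above background on all of them, were Gtpbp4 (Pearson r = 0.996), Aimp1 (0.988), Apc2 (0.987), Yars2 (0.984) and Kdm3b (0.983). The 6 points share the 3 experiments, and the log2 differences of these genes between the labels were small, from 0.07 for Aimp1 to 0.28 for Kdm3b. For Spry4 no such list was made, as it was not above background.

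Promoter sequences were looked up because several DUSP genes are switched on through short elements close to their start. The RefSeq table for GRCm38.p6 holds 8 of the 10 members, with 250 bases before and 50 bases after the start. Motifs were searched on both strands in the whole window. The cAMP response element (CRE, TGACGTCA) was found in Dusp1, and in 1.79% of all 32851 promoters. The CArG box bound by serum response factor was found in Dusp5, at 2 adjoining places, and in 1.63% of all promoters. The ETS core CCGGAA occurred in Spry2 (14.9% of all promoters), while the AP-1 site TGACTCA (5.20%) and the EGR site GCGTGGGCG (0.612%) occurred in 0 of the 8. These matches describe letters in the windows and not occupied sites. The 250 bases before the start of Dusp1 (GRCm38.p6, chr17:26508473-26508722, minus strand) and of Dusp5 (chr19:53528895-53529144, plus strand) are shown 5′ to 3′ for the genes with a CRE and a CArG box, with those motifs in capitals.
Dusp1: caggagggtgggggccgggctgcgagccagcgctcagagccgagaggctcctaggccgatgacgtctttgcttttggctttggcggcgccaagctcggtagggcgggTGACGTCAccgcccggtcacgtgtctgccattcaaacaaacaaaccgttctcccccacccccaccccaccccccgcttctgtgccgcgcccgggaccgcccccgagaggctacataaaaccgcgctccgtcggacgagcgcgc
Dusp5: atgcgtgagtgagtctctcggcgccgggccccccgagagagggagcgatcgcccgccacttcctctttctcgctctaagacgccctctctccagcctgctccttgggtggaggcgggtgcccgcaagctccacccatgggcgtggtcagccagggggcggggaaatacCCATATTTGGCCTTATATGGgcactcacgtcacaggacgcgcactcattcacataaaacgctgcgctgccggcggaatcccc

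The remaining MAP kinase phosphatases, which share the catalytic and docking domains of the Dusp members, were listed as Dusp7, Dusp8, Dusp9 and Dusp16. All 4 were higher, with a median log2 difference of 0.89 and medians of 0.73, 0.85 and 1.09 in the experiments, and 0 passed after adjustment. Dusp7, a cytoplasmic phosphatase close to Dusp6, gave 13473, 7968 and 11311 under GapmeR Ntep and 5874, 2912 and 3278 under GapmeR control, without overlap. Its difference was 1.48 (SE 0.34, limma adjusted p = 0.0637), and it passed with experiments as blocks (0.0324). Dusp8, which prefers JNK and p38, differed by 1.10 (SE 0.42, adjusted p = 0.177, with blocks 0.0392).

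The other members of the Sprouty and Spred families were listed as Spry3, Spred2 and Spred3. Whether they differed from the phosphatases was not tested. Spry3 and Spred2 were lower without overlap of the labels, as were 15.5% of all genes. Spry3 gave 66.3, 280 and 203 under GapmeR Ntep against 428, 614 and 524 under GapmeR control, a log2 difference of -1.73 (SE 0.55, limma adjusted p = 0.120), with -2.69, -1.13 and -1.37 in the experiments. Spred2 gave 83.5, 265 and 403 against 839, 512 and 672, a difference of -1.67 (SE 0.59, adjusted p = 0.153), with -3.33, -0.95 and -0.74. For both, experiment 1 showed the largest gap. Spred3 was not well above background on the arrays labelled GapmeR Ntep and was so on 1 of 3 control arrays, which bounds it as at least 1.20-fold lower (adjusted p = 0.0820). Neither Spry3 nor Spred2 passed after adjustment, with or without blocks.

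**Figure D3:**
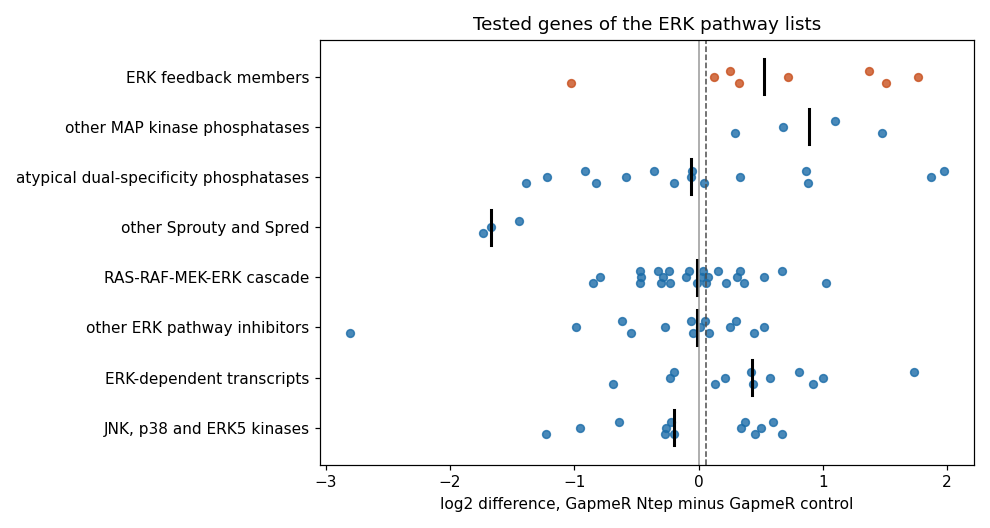
Log2 difference of GapmeR Ntep minus GapmeR control for every tested gene of the lists around ERK, 1 point per gene, with black bars for list medians and a dashed line for the median of all genes at 0.06. The median of the ERK feedback genes is 0.52 and that of the other MAP kinase phosphatases 0.89. Spred3, near background, is drawn at its measured value.

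The cascade that feeds these genes showed no common direction. Of 25 genes from receptor adaptors to ERK and its RSK substrates, 12 were higher and 13 lower, with a median of -0.01. Nras, which encodes a RAS protein, was the only 1 to pass without blocks, from 15185 ± 2369 under GapmeR control to 30773 ± 2690.3 under GapmeR Ntep (log2 1.03, SE 0.19, limma adjusted p = 0.0398), and rose in all 3 experiments. Without the control array of experiment 2 or the GapmeR Ntep array of experiment 3, 0 gene names of the whole array passed after adjustment, Nras and the calls given below included. Without the control array of experiment 3, 0 passed as higher and 5 as lower, and Nras and those calls did not pass. Nras passed in 0 of the 6 fits that left out 1 array. Of 14 other inhibitors of the pathway, 7 were higher and 7 lower and 0 passed. Those farthest from 0 were Cblb, a ubiquitin ligase for receptors (-2.80, SE 0.97, adjusted p = 0.147, well above background on 2 of the 3 arrays labelled GapmeR Ntep), and Rasa1, a RAS GTPase-activating protein (-0.98, SE 0.29, adjusted p = 0.101).

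Of 12 other transcripts known to depend on ERK, 9 were higher, with a median of 0.43 and 0.25, 0.22 and 0.61 in the experiments, and 0 passed. Etv5, an ETS factor, gave 22349, 20774 and 40747 under GapmeR Ntep against 17744, 4597 and 6307 under GapmeR control, without overlap (log2 1.73, SE 0.56, adjusted p = 0.126). Plaur, the urokinase receptor, differed by 1.00 (SE 0.58, adjusted p = 0.340), with overlap. Kinases of the JNK, p38 and ERK5 branches, which several of the phosphatases also act on, had 6 genes higher and 7 lower and a median of -0.20, while the medians within experiments had the other sign, at 0.10, 0.22 and 0.15. Map2k6 (-1.23, adjusted p = 0.382) and Mapk9 (-0.95, adjusted p = 0.183) were farthest from 0.

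Atypical dual-specificity phosphatases and the slingshot phosphatases were listed together, as relatives without the MAP kinase docking domain. Of 15 tested, 6 were higher and 9 lower, with a median of -0.06. The slingshot phosphatase Ssh1, which acts on cofilin, was higher at 1003 ± 13.2 against 255 ± 11.9 (log2 1.97, SE 0.15, adjusted p = 0.0157), and Dusp28 was lower at 198 ± 58.7 against 503 ± 27.6 (log2 -1.39, SE 0.27, adjusted p = 0.0450). Both moved the same way in all 3 experiments. Of the 6 fits without 1 array, Ssh1 passed in 3 and Dusp28 in 0. With experiments as blocks, Dusp3 (0.88, adjusted p = 0.0474) and Dusp22 (0.86, adjusted p = 0.0495) passed as higher too.

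Markers of cell types were set beside these values. All 10 fibroblast markers were well above background on every control array, Dcn on only 1 array labelled GapmeR Ntep. Of them, 9 were lower under GapmeR Ntep, with a median of -0.59. Their summed signal was 579722, 737645 and 555793 under GapmeR Ntep against 859231, 892119 and 808631 under GapmeR control, and the probe with the highest mean was that of Col3a1 under GapmeR control and that of S100a4 under GapmeR Ntep. None passed after adjustment without blocks, and of the 9 others Pdgfra was farthest from 0 (-0.95, adjusted p = 0.480). Dcn gave 34.5, 296 and 138 against 97.1, 1027 and 641, and with experiments as blocks it was the only 1 to pass (0.0310), on signals partly at background. Of 6 macrophage markers on the array, 4 were tested and all 4 were higher, with a median of 1.23 and a summed signal of 75133, 42382 and 50384 against 27317, 19844 and 21232. The brightest of these was Itgam, and Cd68 passed (log2 1.21, SE 0.17, adjusted p = 0.0287), as it did in 1 of the 6 fits without 1 array. With experiments as blocks all 4 passed, Cd14 (1.11, 0.0332), Cd68 (0.0314), Csf1r (3.19, 0.0387) and Itgam (1.26, 0.0397), while the defining markers Ptprc and Emr1 were not well above background on any array. Of 4 epithelial markers, Krt8 and Krt18 were well above background on all arrays, Cdh1 on 2 labelled GapmeR Ntep and 1 control array, and Epcam on 1 of each. Of the 4, 3 were higher and 1 was lower, with a median of 0.34. Krt18 differed by 1.56 (adjusted p = 0.185), the dim Cdh1 by 0.47 (adjusted p = 0.579) and the dim Epcam by -0.02. Krt8, the brightest, differed by 0.20 but was lower under GapmeR Ntep in experiments 2 and 3 (-0.23 and -0.62). The sums of the list were 5354, 3275 and 2727 against 1767, 3750.4 and 3715. Endothelial markers had a median of 0.39 over 2 tested genes, Kdr (0.41, adjusted p = 0.184) and Pecam1 (0.38, adjusted p = 0.264), with Cdh5 not well above background and sums of 783, 786 and 708 against 615, 539 and 584.5. Whether these markers bear on the differences of the feedback genes was not tested.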

How the data were processed

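Single-color Agilent mouse arrays were run on 6 RNA samples, 1 array each. The authors extracted the intensity of each spot with Feature Extraction 10.7.3.1 (submitters' processing notes) and deposited linear intensities with background subtracted and arrays not yet normalized to each other. Their deposited table of quantile normalized intensities served as an alternative.

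Here, replicate spots were averaged before quantile normalization, and a floor of 20 was set. Labels were compared on the log2 scale with limma 3.58.1 (R 4.3.3) for the 30990 probes whose brighter label averaged 50 or more, unpaired, with two-sided p-values adjusted by Benjamini-Hochberg. A gene stands by its probe with the highest mean log2 signal. With 3 against 3 arrays an exact permutation test cannot go below 0.1, and the number of arrays limits the precision. The steps were tested on simulated data.

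The pairing of arrays by experiment comes from the study's supplement. Residual correlations were 0.466, 0.300 and 0.254 within experiments and -0.327 to 0.126 across them, so experiments were also fitted as blocks.

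Members and lists were chosen with earlier results of these data known. Named are all members, the Ntep probe, of each other list the genes past the adjusted limit (up to 5) or otherwise the 2 farthest from 0, and the 5 genes closest to Dusp6 (none for Spry4, which was too dim). Marker genes beyond this rule, Spred3 and genes past the limit only with blocks were chosen after their values were seen.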

Additional observations from a re-analysis of the deposited data

How the results depend on the processing

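Dusp1, Dusp4, Dusp5, Dusp10, Spry1 and Spred1 kept their direction in every setting in which they were tested, while Dusp6 turned to -0.015 without GapmeR control replicate 2 (leaving out 1 array gave -0.015 to 0.62). Leaving out 1 array also gave 0.22 to 1.25 for Dusp5, 0.083 to 0.50 for Dusp10, 0.062 to 2.87 for Spry1 and 0.0036 to 0.25 for Dusp2, which at its lowest was near 0. Over the settings the log2 difference ran from 1.00 to 1.76 for Dusp1, from 1.16 to 2.05 for Dusp4 and from -1.18 to -0.84 for Spred1, with adjusted p of 0.0170 to 0.358, 0.00774 to 0.385 and 0.00954 to 0.200.

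Members higher past the adjusted limit numbered 0, and 2 with array weights or with the replicate block, where 17.5% and 6.51% of all genes passed as higher, against 1.98%. Members lower past it numbered 0, and 1 with array weights, the well above background filter or eBayes trend, where 16.1%, 6.47% and 5.25% of all genes passed as lower, against 3.18%. Past the fold and unadjusted limits, 0 were higher, against 2 with array weights or the replicate block (5.95% and 4.37% of all genes, against 2.89%). As lower, 1 passed these limits, against 0 with 75th percentile scaling, array weights, the replicate block, the methods' t-test or the mean over probes. In those settings 4.45%, 8.34%, 6.75%, 2.85% and 4.84% of all genes passed as lower, against 5%. Leaving out 1 array gave 0 to 2 higher and 0 to 1 lower at these limits, and 0 in either direction past the adjusted one. Of all genes, 1.71% to 3.82% then passed these limits as higher and 3.1% to 6.08% as lower. Past the adjusted limit, 0% to 1.52% of all genes were higher and 0% to 2.93% lower. By the methods' t-test 0 members passed after adjustment in either direction, where 0.472% of all genes passed as higher and 0.454% as lower.

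The median of the members, 0.52, was 0.29 after normexp, 0.33 without an intensity filter (which lets in the dim Spry2 and Spry4), 0.33 with marked spots removed (which drops Spry1) and 0.30 with them set missing. Leaving out 1 array gave 0.17 to 0.93. Under 75th percentile scaling all genes shifted by a median of 0.16. The dim Spry2 was then tested too, and the median of the 9 members was 0.61. The scaling and the set of members changed together there. Other causes were not tested. At the adjusted limit the replicate block changed no other member's call, and at an unadjusted limma p under 0.05 it added Dusp5. Dusp1 and Dusp4 no longer reached an unadjusted p under 0.05 by the methods' t-test or without an intensity filter. The same held without GapmeR control replicate 2, GapmeR control replicate 3 or GapmeR Ntep replicate 1. Signals near background limit Dusp5, Spry2 and Spry4.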
